A study of Mus musculus with 9 samples.

Results

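The genes described here encode cell surface receptors for extracellular matrix: 8 integrin subunits (Itga1, Itga2, Itga3, Itga8, Itga11, Itgav, Itgb1 and Itgb6) and the 2 discoidin domain receptors (Ddr1 and Ddr2). They were picked by symbol, as known receptors for collagen, laminin and related ligands. The choice was made with earlier results of these data known, so shares set against all genes are descriptive. All 10 were found among the 22637 symbols of the count tables. All 10 also passed the filter on low counts, which kept 17315 genes. The series compared whole kidney RNA of 129X1/SvJ mice at 9 weeks of age in 3 groups of 3 libraries. WT mice were wild type and had no treatment, KO_PBS mice were Col4a3 -/- and were given PBS, and KO_antimiR21 mice were Col4a3 -/- and were given antimiR-21, an inhibitor of the microRNA miR-21. Col4a3 encodes a chain of the type IV collagen of the glomerular basement membrane, and mice that lack it serve as a model of Alport syndrome. WT mice had no injection, so genotype and injection cannot be told apart in the comparisons with WT.

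An integrin is a pair of 1 alpha and 1 beta subunit that ties the matrix outside the cell to actin inside it and signals through kinases bound to its tail. The beta subunit Itgb1 pairs with most of the alpha subunits described here: with Itga1, Itga2 and Itga11 it binds collagens, with Itga3 laminins, with Itga8 nephronectin and other ligands carrying the tripeptide RGD. Itgav also pairs with other beta subunits, and with Itgb6 it forms an epithelial receptor that releases TGF-beta from its latent complex. Discoidin domain receptors are receptor tyrosine kinases that are switched on by collagen itself. In the kidney, Itga3 with Itgb1 anchors podocytes to the glomerular basement membrane, Itga1 and Itga8 are prominent in mesangial cells, and Ddr1 is found mainly in epithelium and Ddr2 in mesenchymal cells.

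Total expected counts ran from 26448275 to 31786624 per library. The targeted gene Col4a3 stood at 257 to 371 CPM (the read count of a gene relative to the TMM-scaled total of its library) in WT, at 44.3 to 94.3 in KO_PBS and at 70.5 to 138 in KO_antimiR21, with no overlap between WT and either knockout group. The summed level of Y-linked genes was 0.93 and 1.49 CPM in WT 1 and WT 3, read as female, and 102 to 118 CPM in WT 2 and the 6 knockout libraries, read as male. The marks F and M in the deposited WT names match this. Genotype and sex are therefore partly confounded. A code in the deposited names was L4 for the 3 WT libraries, KO_PBS 1 and KO_PBS 2, and L5 for the others. The sources do not explain it. WT and KO_antimiR21 share no code, so code and group cannot be told apart between them. In the comparisons with KO_PBS, code and group are partly confounded. Each deposited name opens with a number of its own, which the sources do not explain either. The WT libraries came from animals of both sexes, so WT holds more than 1 animal. For the knockout groups no label says that each library is a separate animal, and p-values there weigh a difference against a spread that may be partly technical. In whole kidney RNA, more cells of a type and more RNA per cell cannot be told apart.

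Itgb1 was the most abundant of the receptors. To compare genes, CPM was divided by the length of the longest annotated transcript in kilobases (kb). On this scale Itgb1 stood at 71.0 ± 9.55 CPM per kb in WT (SD, n = 3), at 121 ± 9.49 in KO_PBS and at 93.7 ± 16.1 in KO_antimiR21. Ddr1 came next at 32.1 ± 6.49, 69.0 ± 6.35 and 52.2 ± 10.2 CPM per kb. Below them in WT were Itgb6 (21.4 ± 6.94 CPM per kb), Itga3 (20.99 ± 9.73) and Itgav (17.7 ± 3.06), whose ranges over the WT libraries overlapped. Itga8 (4.25 ± 0.44) and Itga1 (2.96 ± 0.92) formed a lower step. The other collagen receptors were near the floor of the assay, with Itga2 at 0.30 ± 0.37, Ddr2 at 0.19 ± 0.09 and Itga11 at 0.06 ± 0.03 CPM per kb in WT. With the median instead of the longest transcript length, the WT order was the same, while in KO_PBS Itga3, Itgav and Itgb6 traded places 3 to 5. By the longest transcript, Itgav had rank 5 in WT and rank 3 in both knockout groups.

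**Figure D1:**
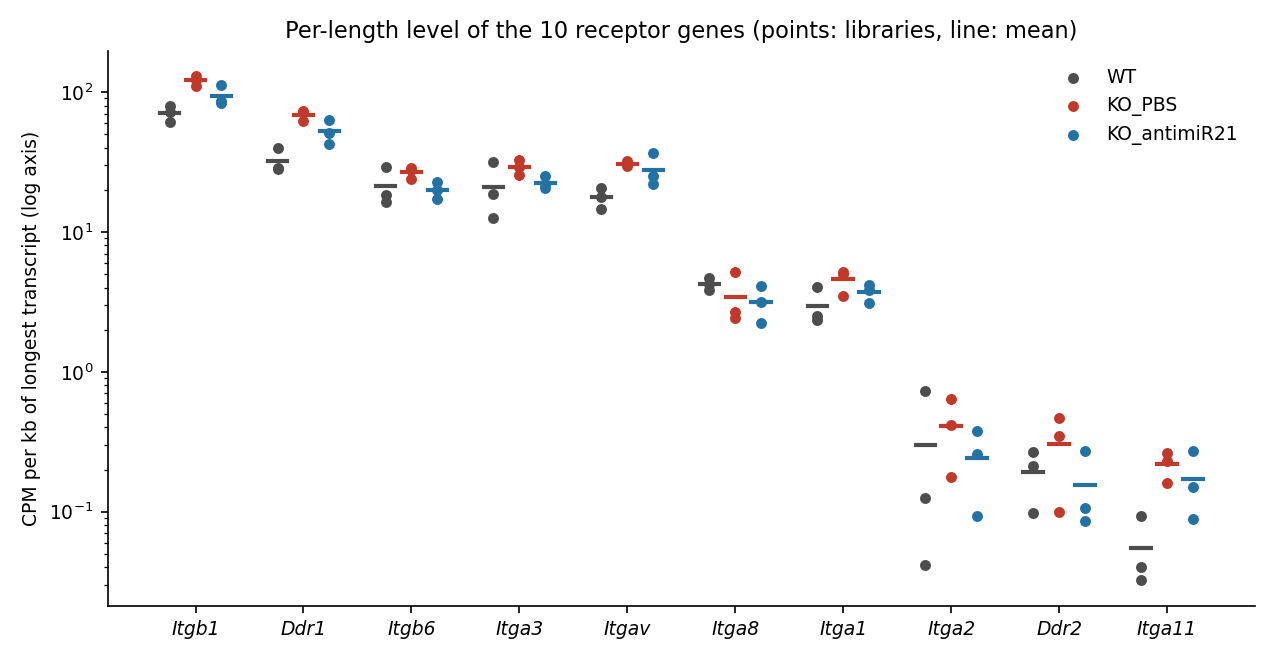
Level of the 10 receptor genes per kb of transcript (log axis) in WT, KO_PBS and KO_antimiR21, with a point for each library and a line for each group mean. Itgb1 and Ddr1 lead in every group, and Itga2, Ddr2 and Itga11 lie below 1 CPM per kb in every library.

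The first comparison asked how the receptors differed between PBS-treated knockout and wild-type kidneys. Itgb1, Itgav, Ddr1 and Itga11 rose in KO_PBS, and no receptor of the 10 fell. Their log2 fold changes against WT were 0.77 ± 0.17 (SE) for Itgb1, 0.80 ± 0.21 for Itgav, 1.10 ± 0.20 for Ddr1 and 1.96 ± 0.54 for Itga11. These 4 of 10 stand against 14.6% of all 17315 genes called higher, 9.85% called lower and 24.4% called in either direction, by edgeR's quasi-likelihood test at a Benjamini-Hochberg adjusted p under 0.05. The median log2 fold change was 0.65 over the 10 receptors and -0.03 over all genes. With library size as the only scaling, that median over all genes moved to 0.25, the share of calls that were higher went from 59.7% to 80.6%, and the same 4 receptors plus Itga1 passed.

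Itgb1, the shared beta subunit, stood at 276, 304 and 232 CPM in WT 1, 2 and 3, at 465, 497 and 425 CPM in KO_PBS, and at 317, 428 and 328 CPM in KO_antimiR21. Every KO_PBS library was above every WT library, and so was every KO_antimiR21 library, the lowest of them by a small margin. The KO_PBS mean was 1.71-fold that of WT (edgeR adjusted p = 0.0136).

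Itgav, the alpha subunit of RGD-binding receptors, stood at 146, 125 and 103 CPM in WT 1, 2 and 3, at 217, 208 and 226 CPM in KO_PBS, and at 177, 260 and 154 CPM in KO_antimiR21. The KO_PBS libraries lay close together and above all WT libraries, 1.74-fold on average (edgeR adjusted p = 0.0252). The KO_antimiR21 libraries spread on both sides of them, and KO_antimiR21 2 was the highest of all 9.

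Ddr1, the epithelial collagen receptor kinase, stood at 153, 111 and 109 CPM in WT 1, 2 and 3, at 283, 239 and 280 CPM in KO_PBS, and at 198, 244 and 165 CPM in KO_antimiR21. The KO_PBS mean was 2.15-fold that of WT (edgeR adjusted p = 0.00517), the lowest p of the 10 receptors. All 6 knockout libraries were above all 3 WT libraries.

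Itga11, a collagen-binding subunit best known from fibroblasts, was scarce: 11.04, 4 and 5.01 expected counts in WT 1, 2 and 3, 29.3, 38.82 and 37.01 in KO_PBS, and 35, 22.85 and 12 in KO_antimiR21. As CPM these were 0.46, 0.16 and 0.20 in WT, 0.79, 1.30 and 1.15 in KO_PBS, and 1.36, 0.74 and 0.44 in KO_antimiR21. KO_PBS and WT did not overlap, and the fitted fold was 3.90 (edgeR adjusted p = 0.0301), from few reads. The inhibitor group ran from a level within the WT range to the highest of all libraries.

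The other 6 receptors did not pass the test, and their groups overlapped. Across all genes, 22.6% were higher in KO_PBS with no overlap and 20.5% were lower, against 4 and 0 of the 10 receptors. Itga1, a collagen IV receptor subunit, stood at 44.0, 27.5 and 25.8 CPM in WT and at 38.5, 56.8 and 55.1 CPM in KO_PBS, a log2 fold change of 0.63 ± 0.24 (edgeR adjusted p = 0.0892). WT 1 was higher than the other two WT libraries and also above KO_PBS 1. Without WT 1 the value was 0.93 and Itga1 passed (edgeR adjusted p = 0.0233). Itgb6, the epithelial partner of Itgav, followed a like course: 141, 79.2 and 87.9 CPM in WT and 133, 137 and 115 CPM in KO_PBS, a difference of 0.32 ± 0.22 on the log2 scale (edgeR adjusted p = 0.332). Without WT 1 it was 0.64 and passed (edgeR adjusted p = 0.0392).

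Itga3 and Itga2 were set apart by WT 2, the male wild-type library. Itga3, the laminin receptor subunit of podocytes and tubules, stood at 61.3, 154 and 90.8 CPM in WT 1, 2 and 3 and at 159, 141 and 125 CPM in KO_PBS. WT 2 lay within the KO_PBS range and the female WT libraries lay below it. Its log2 fold change was 0.47 ± 0.29 (edgeR adjusted p = 0.275) and became 0.91 when WT 2 was left out (edgeR adjusted p = 0.021). With the male libraries alone it was -0.09 (edgeR adjusted p = 0.836). Itga2, an epithelial and platelet collagen receptor subunit, stood at 0.30, 5.17 and 0.88 CPM in WT and at 1.26, 4.54 and 2.98 CPM in KO_PBS, with WT 2 the highest of all 9. Its log2 fold change was 0.46 ± 0.92 (edgeR adjusted p = 0.768), turned to -0.80 among male libraries and was 2.31 without WT 2. A part of sex in either pattern was not tested, since WT holds 1 male library.

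Itga8 was the only receptor of the 10 with a lower mean in KO_PBS. This mesangial subunit stood at 24.5, 22.2 and 27.3 CPM in WT and at 14.1, 29.9 and 15.5 CPM in KO_PBS, so KO_PBS 2 was above all WT libraries and the other two below them. The log2 fold change was -0.32 ± 0.31 (edgeR adjusted p = 0.512), and -0.74 without KO_PBS 2 (edgeR adjusted p = 0.092). Npnt, which encodes its ligand nephronectin and was singled out after its values were seen, stood at 228 ± 101 CPM in WT and 179 ± 59.0 in KO_PBS (edgeR adjusted p = 0.591). Ddr2 stood at 1.81, 2.28 and 0.84 CPM in WT and at 0.85, 2.97 and 4.04 CPM in KO_PBS, a log2 fold change of 0.66 ± 0.64 (edgeR adjusted p = 0.504). KO_PBS 1 had as little Ddr2 as the lowest WT library, while the other two KO_PBS libraries were above all WT libraries. The Ddr2 value was 1.08 without KO_PBS 1 and 0.18 without KO_PBS 3, uncalled in both.

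**Figure D2:**
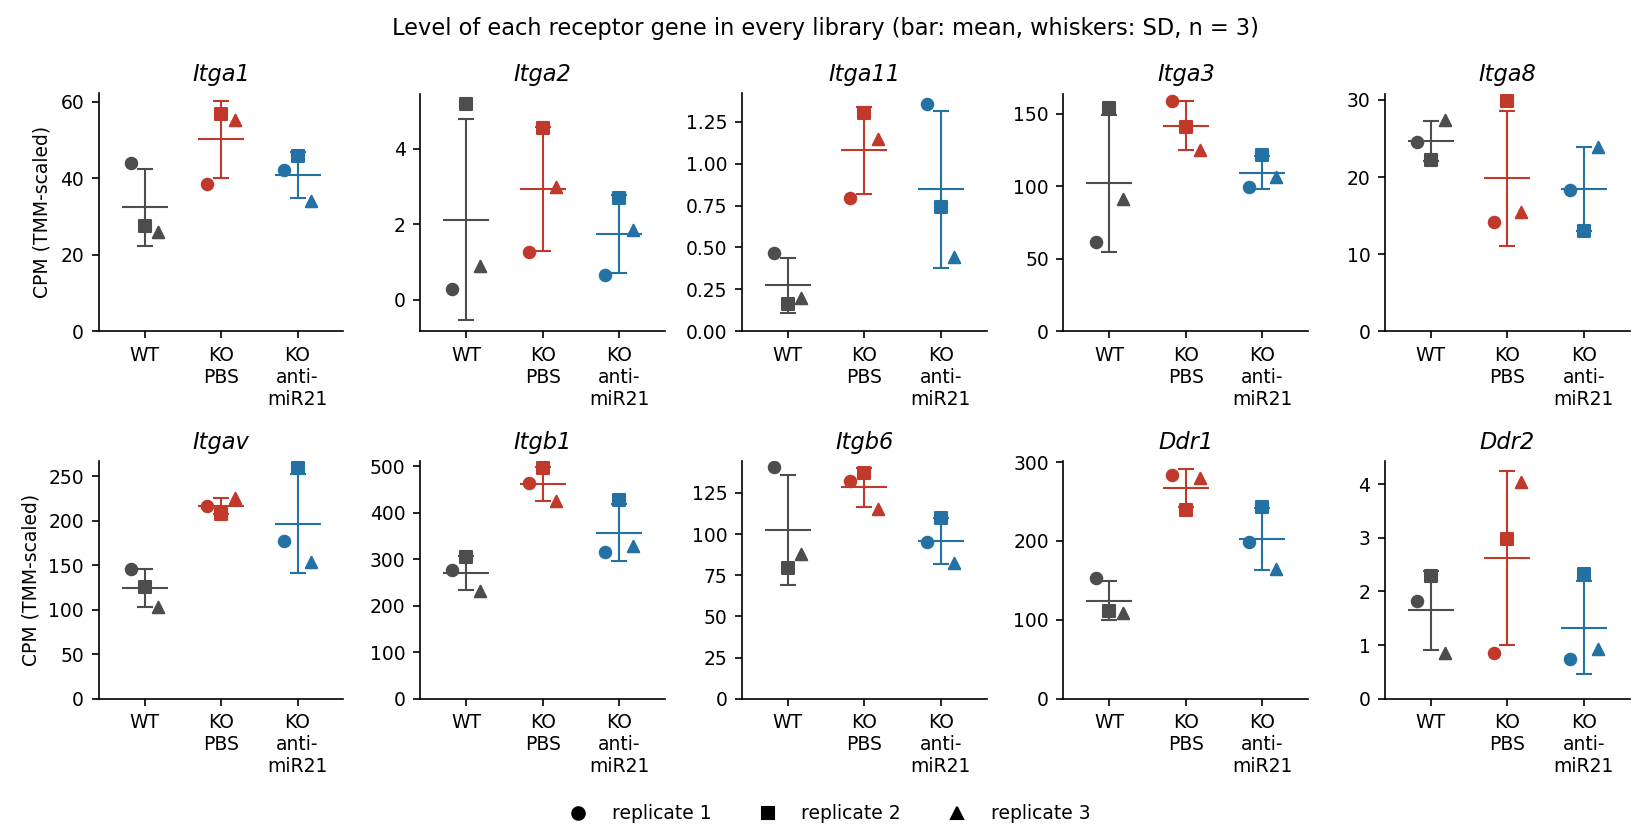
CPM of each receptor gene in every library of WT, KO_PBS and KO_antimiR21, with the mean and SD of each group (n = 3) and a marker shape for each replicate number. Itga11, Itgav, Itgb1 and Ddr1 show no overlap between WT and KO_PBS, and WT 2 stands above the other WT libraries for Itga3 and Itga2.

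Of the 4 receptors that rose, Ddr1 kept its call when any 1 library was left out. Itgb1 lost its call without WT 3 or KO_PBS 2 (edgeR adjusted p = 0.054 and 0.0519). Itgav lost it without WT 2, WT 3, KO_PBS 1, KO_PBS 2 or KO_PBS 3 (edgeR adjusted p = 0.0593, 0.0912, 0.0744, 0.0605 and 0.0754), and Itga11 without the same 5 libraries (edgeR adjusted p = 0.0901, 0.0991, 0.052, 0.0885 and 0.0733). Among male libraries, where WT 2 alone stands for WT and is assumed to vary like the other groups, the log2 fold changes of Itgb1, Itgav, Ddr1 and Itga11 were 0.63, 0.82, 1.30 and 2.74. All 4 were past the threshold no longer (edgeR adjusted p = 0.2, 0.174, 0.0736 and 0.124), in a fit that called 0 of all genes and gave 4396 genes an unadjusted p under 0.05. With sex as a covariate edgeR again called 0 genes (4389 with an unadjusted p under 0.05). Among libraries with code L4 Itga11 lost its call, with a log2 fold change of 1.92 (edgeR adjusted p = 0.0702), and Itgb1, Itgav and Ddr1 kept theirs at 0.83, 0.77 and 1.08. With library code as a covariate both Itga11 and Itgav lost their calls, at 1.92 and 0.77 (edgeR adjusted p = 0.0674 and 0.0646), and Itgb1 and Ddr1 kept theirs at 0.83 and 1.07.

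**Figure D3:**
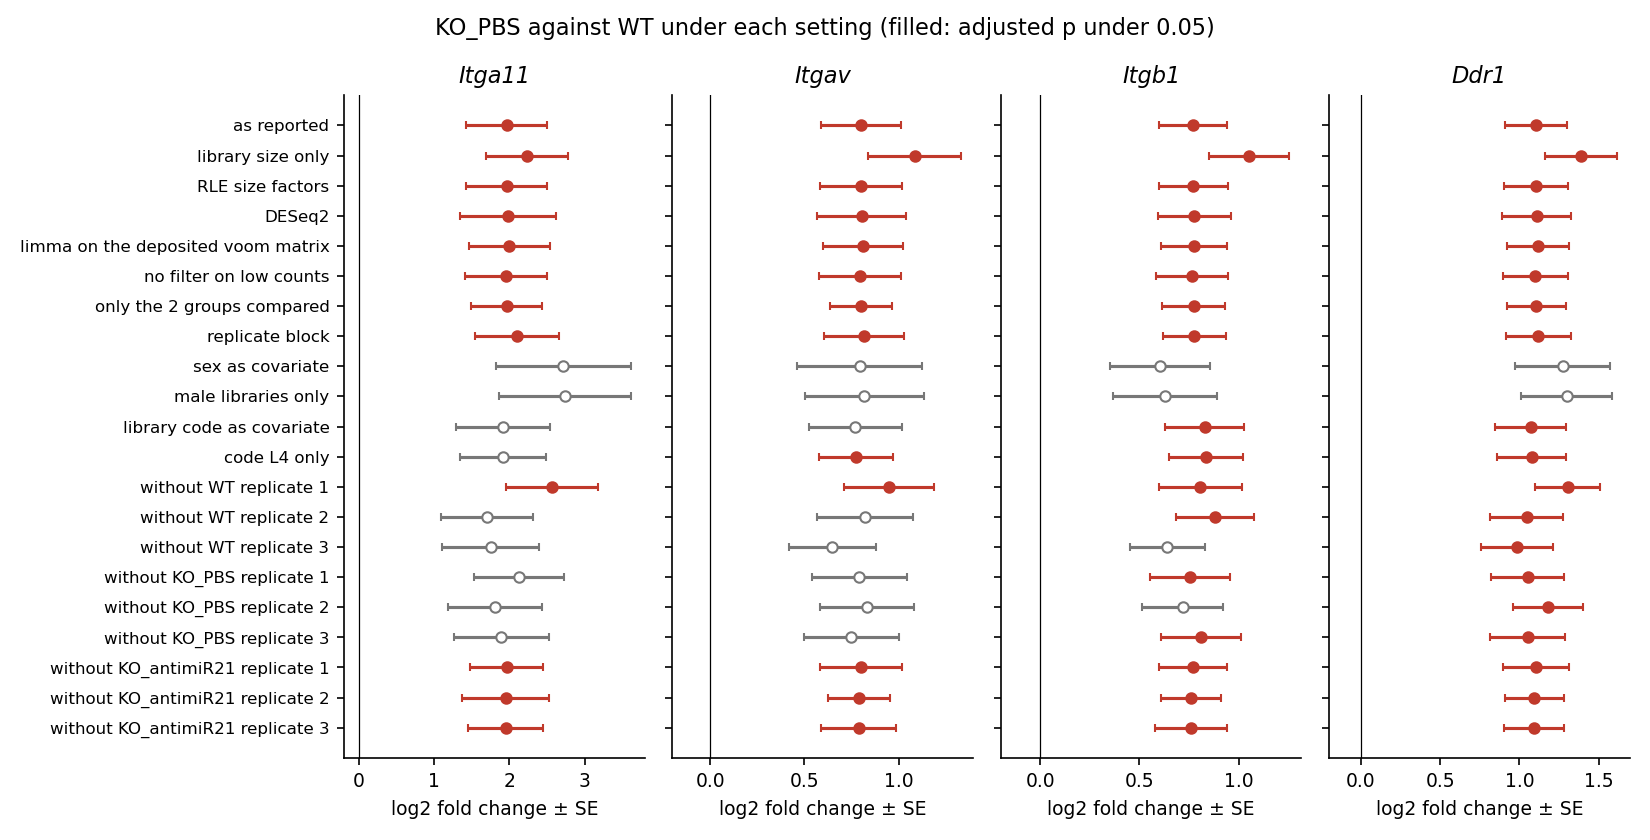
Log2 fold change (± SE) of the 4 receptors that rose in KO_PBS against WT, as reported and under each other setting, filled where the adjusted p was under 0.05. All values lie above 0, and the 4 calls are lost together with sex as a covariate or with male libraries only.

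The regions before the start sites of these 4 receptors are shown because these were the 4 called higher in KO_PBS against WT. They are RefSeq sequences on GRCm38.p6, from 250 bases before to 50 bases after an annotated start, while the counts were made on mm9. Itga11 lies at chr9:62677605-62677904 on the plus strand, Itgav at chr2:83724147-83724446 on the plus strand, Itgb1 at chr8:128685404-128685703 on the plus strand, and the third of the 4 Ddr1 starts at chr17:35701995-35702294 on the minus strand. That Ddr1 start was chosen, after the search, because it is the only one of the 4 with AP-1 letters. Capitals mark matches on either strand to the AP-1 letters TGANTCA, the GC box GGGCGG or the TEAD letters GGAATG.
Itga11: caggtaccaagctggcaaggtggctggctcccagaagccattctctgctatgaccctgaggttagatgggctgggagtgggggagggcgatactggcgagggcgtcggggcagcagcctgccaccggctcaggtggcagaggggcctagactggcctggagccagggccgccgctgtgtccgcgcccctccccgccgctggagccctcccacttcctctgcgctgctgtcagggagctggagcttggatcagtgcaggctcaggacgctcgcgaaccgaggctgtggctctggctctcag
Itgav: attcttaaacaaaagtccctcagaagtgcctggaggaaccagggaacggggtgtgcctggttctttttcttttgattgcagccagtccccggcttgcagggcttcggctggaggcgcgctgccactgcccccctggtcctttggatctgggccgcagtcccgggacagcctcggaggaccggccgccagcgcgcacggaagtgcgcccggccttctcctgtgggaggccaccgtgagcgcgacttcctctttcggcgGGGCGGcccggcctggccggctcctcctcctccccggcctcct
Itgb1: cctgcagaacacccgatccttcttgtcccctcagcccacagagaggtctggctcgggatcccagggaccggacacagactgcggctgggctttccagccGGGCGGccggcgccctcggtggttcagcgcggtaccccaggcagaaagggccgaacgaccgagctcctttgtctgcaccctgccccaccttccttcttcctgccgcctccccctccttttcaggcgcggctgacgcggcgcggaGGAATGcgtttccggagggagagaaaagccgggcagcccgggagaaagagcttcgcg
Ddr1: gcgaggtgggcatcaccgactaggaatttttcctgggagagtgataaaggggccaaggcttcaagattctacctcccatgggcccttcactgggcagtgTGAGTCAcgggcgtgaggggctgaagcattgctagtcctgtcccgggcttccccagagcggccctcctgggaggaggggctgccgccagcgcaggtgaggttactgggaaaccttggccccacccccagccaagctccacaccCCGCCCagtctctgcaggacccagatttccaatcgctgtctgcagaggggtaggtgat

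The 10 genes have 15 such regions in RefSeq. GC boxes were in 8 of the 15, against 35.7% of all 32851 regions of this length. There was 1 in Itgav, 1 in Itgb1 and none in the Itga11 region. The 4 Ddr1 starts held 1, 0, 1 and 3 boxes in turn, and the 2 Itga3 starts 3 and 1. Starts of the same gene were counted separately, so the regions with a box come from fewer genes. AP-1 letters were in 2 of the 15 (7.81% of all), the Ddr1 region above and the second Itga3 start, and TEAD letters in 1 (14.7% of all), Itgb1. The TATA letters TATAAA were in 1 (13.6% of all), Ddr2. The SMAD letters GTCTAGAC and the NF-kappaB motif were in 0 of the 15 (0.213% and 0.155% of all). Itga1 and Itga2 lie on the same strand of chromosome 13, and Itga8, Itgav and Itgb6 on chromosome 2. The GC content was 68.0% for Itga11 and 67.3% for Itgav and Itgb1, and 55.7%, 57.3%, 62.0% and 77.7% for the 4 Ddr1 starts in turn, against a median of 52.7% over all regions.

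The second comparison asked how the receptors differed between inhibitor-treated and PBS-treated knockout kidneys. All 10 receptors had a lower fitted level in KO_antimiR21 than in KO_PBS, where 48.1% of all genes had a higher one. None of the 10 passed the test. Log2 fold changes ran from -0.97 ± 0.65 for Ddr2 to -0.11 ± 0.31 for Itga8, with a median of -0.37 against -0.01 over all genes. The Ddr2 value rested on single libraries: it was -1.63 without KO_antimiR21 2 and -0.48 without KO_PBS 3. edgeR called 0 of 17315 genes here (0%), with 1203 at an unadjusted p under 0.05 and none of the receptors among them. DESeq2 called 21 genes and limma 0, and neither called a receptor, with Itgb1 the 1 receptor at an unadjusted p under 0.05 by DESeq2. The comparison shares the KO_PBS libraries with the first.

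Itgb1 and Ddr1 had the lowest p of the receptors here. Itgb1 was at -0.37 ± 0.17 (edgeR adjusted p = 0.707), with KO_antimiR21 2 at 428 CPM just inside the KO_PBS range of 425 to 497. Ddr1 was at -0.40 ± 0.19 (edgeR adjusted p = 0.707), with KO_antimiR21 2 at 244 CPM inside the KO_PBS range of 239 to 283. In both genes the other inhibitor-treated libraries lay between WT and KO_PBS.

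For Itgb6 and Itga3 every KO_antimiR21 library was below every KO_PBS library, as for 6.85% of all genes, and no receptor lay wholly above, as 3.83% did. Itgb6 stood at 95.4, 110 and 82.3 CPM in KO_antimiR21 (-0.42 ± 0.22, edgeR adjusted p = 0.716), within the range of WT. Itga3 stood at 99.5, 122 and 107 CPM (-0.37 ± 0.29, edgeR adjusted p = 0.811), also within the WT range. Itga1 stood at 42.2, 45.9 and 34.1 CPM, Itga8 at 18.3, 13.0 and 23.95 CPM, Itga2 at 0.66, 2.71 and 1.84 CPM and Ddr2 at 0.74, 2.32 and 0.92 CPM, all overlapping KO_PBS. KO_antimiR21 2 was the highest inhibitor-treated library for 8 of the 10 receptors, all but Itga8, where it was the lowest, and Itga11. The difference for Itgav moved from -0.14 to -0.37 without KO_antimiR21 2 and to 0.03 without KO_antimiR21 3, and that for Itga8 turned to 0.31 without KO_PBS 2.

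Because the treatment blocks miR-21, the 3' untranslated regions (UTRs) of the receptors were searched for its seed match. A microRNA pairs through its seed, bases 2 to 8, with sites in messenger RNAs and lowers their levels. The mature sequence from RefSeq is shown with the seed in capitals, followed by the sites of the receptors that hold a full seed match, with 10 bases on each side and the match in capitals.
mmu-miR-21a-5p: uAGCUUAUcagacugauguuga
Itga1 7mer-m8 site: ctgctgtaacATAAGCTtgcagattgc
Itga1 8mer site: gacccctgacATAAGCTAcatattagaa
Itgav 8mer site: agttgacttcATAAGCTActgaagactt

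Itga1 and Itgav each held 1 match to the 8 letters ATAAGCTA, and Itga1 held 1 more to the 7 letters ATAAGCT. So 2 of 10 receptors had a match to ATAAGCT, against 7.81% of the 14180 tested genes with an annotated UTR. Their longest UTRs had 6994 bases (Itga1) and 3581 bases (Itgav), against 811 for Ddr1 and 1112 for Itgb1, which had no match. The 7 letters TAAGCTA leave out the first base of the full match and end in an added A. Outside the 8-letter sites they were in Itga1, Itga8, Itgav and Ddr2. A match of any of these kinds was in those receptors only, and in 12.2% of the 14180 genes. Neither gene with a full match was called in KO_antimiR21 against KO_PBS: Itga1 was at -0.30 ± 0.24 (edgeR adjusted p = 0.818) and Itgav at -0.14 ± 0.21 (edgeR adjusted p = 0.93). A match is a description of the letters and not a measured site.

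Against WT, no receptor passed the test in KO_antimiR21, where 7.15% of all genes were called in either direction, 6.72% higher and 0.427% lower. Ddr1 was at 0.70 ± 0.19 (edgeR adjusted p = 0.0675) and Itgav at 0.66 ± 0.21 (edgeR adjusted p = 0.11). Itga11 was at 1.61 ± 0.55 (edgeR adjusted p = 0.134) and Itgb1 at 0.40 ± 0.17 (edgeR adjusted p = 0.235). These 4 receptors had an unadjusted p under 0.05, as did 3498 of all 17315 genes. For Ddr1, Itgav and Itgb1 the groups did not overlap, as for 14.6% of all genes in this direction, and no receptor lay wholly below WT, as 9.83% did. The other 6 receptors ran from -0.42 ± 0.31 (Itga8) to 0.33 ± 0.24 (Itga1). DESeq2 called Ddr1 (DESeq2 adjusted p = 0.0164), and limma called no receptor. edgeR called Ddr1 without WT 1 or KO_antimiR21 3 (edgeR adjusted p = 0.0457 and 0.0455). This comparison shares its libraries with the other two, so the sets of values are not independent.

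**Figure D4:**
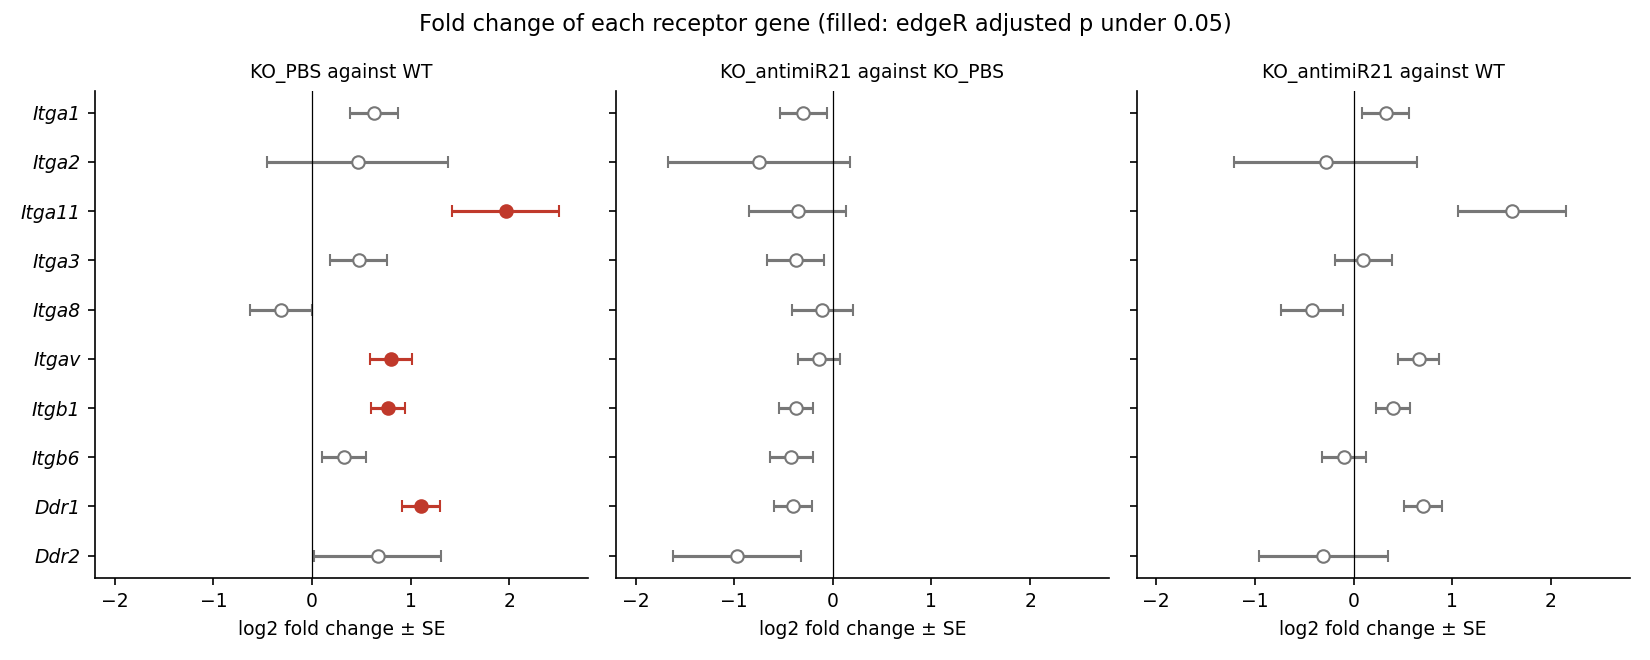
Log2 fold change (± SE) of the 10 receptor genes in the 3 comparisons, filled where the edgeR adjusted p was under 0.05. Itga11, Itgav, Itgb1 and Ddr1 are filled in KO_PBS against WT, and none is filled in the other panels.

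Beside the receptors, other integrin subunits were described from 3 lists, which did not include the tested symbols Itgb2l and Itgbl1. Of the 18 listed subunits, 11 rose in KO_PBS, 1 fell and 6 did not pass, where 14.6% of all genes were called higher and 9.85% lower. The median log2 fold change was 1.46 over the 18. By list it was 2.38 for the leukocyte integrins, 0.70 for the other alpha subunits and 0.63 for the other beta subunits. The last 2 were close to the 0.65 of the 10 receptors. Of the 7 leukocyte integrins 6 rose: Itgax (4.17 ± 0.55), Itgam (3.93 ± 0.46) and Itgb2 (2.95 ± 0.29), subunits of macrophages and other white blood cells, had the lowest p (edgeR adjusted p = 0.00182, 0.00142 and 0.00135). Macrophage markers moved with them: the summed level of 6 markers was 157 to 188 CPM in WT, 568 to 717 in KO_PBS and 289 to 567 in KO_antimiR21, and 5 of the 6 rose in KO_PBS. None of these markers was at 0 in all libraries.

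Among 7 other alpha subunits 3 rose, namely Itga5, the fibronectin receptor subunit (1.61 ± 0.23, edgeR adjusted p = 0.00215), Itga4 (1.28 ± 0.22, edgeR adjusted p = 0.0042) and Itga9 (1.30 ± 0.34, edgeR adjusted p = 0.0253). Itga9 lost its call without WT 2, WT 3, KO_PBS 2 or KO_PBS 3 (edgeR adjusted p = 0.0698, 0.0874, 0.0853 and 0.0635). Itga2b, the platelet alpha subunit, was the 1 that fell and was singled out for that: it stood at 8.49 ± 1.19 CPM in WT and 4.03 ± 1.32 CPM in KO_PBS (-1.07 ± 0.34, edgeR adjusted p = 0.0481). Its call was lost with library size as the only scaling (edgeR adjusted p = 0.0968) and in 6 of the 9 fits without a library, WT 1, 2 or 3, KO_PBS 1 or 3, or KO_antimiR21 3 (edgeR adjusted p = 0.0753, 0.105, 0.107, 0.122, 0.126 and 0.059). Platelet markers were near 0 in all groups. The summed level of 3 markers was 0 to 0.32 CPM in WT, 0.40 to 0.99 in KO_PBS and 0.29 to 0.58 in KO_antimiR21, so it did not fall with Itga2b.

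Of 4 other beta subunits 2 rose, Itgb5, another partner of Itgav (0.53 ± 0.14, edgeR adjusted p = 0.0229), and Itgb4, the hemidesmosome subunit (0.74 ± 0.21, edgeR adjusted p = 0.0346). Itgb5 and Itgb4 each lost the call without WT 2, WT 3, KO_PBS 1 or KO_PBS 2, Itgb5 also without KO_PBS 3 and Itgb4 also without WT 1 (edgeR adjusted p = 0.0624 to 0.0706 for Itgb5 and 0.0517 to 0.11 for Itgb4). Itgb3, the beta subunit of platelets and of a further Itgav receptor, was at 2.003 ± 0.957 (edgeR adjusted p = 0.165). In KO_antimiR21 against KO_PBS edgeR called 0 of the 18. In KO_antimiR21 against WT 8 of the 18 rose, where 6.72% of all genes were called higher. Of these, 6 were in the leukocyte list, and Itga4 and Itga5 were in the list of other alpha subunits. In that comparison Itga5 was at 0.89 (edgeR adjusted p = 0.0479) and kept its call in only 1 of the 9 fits without a library, the one without KO_antimiR21 3 (0.0517 to 0.146 in the others).

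**Figure D5:**
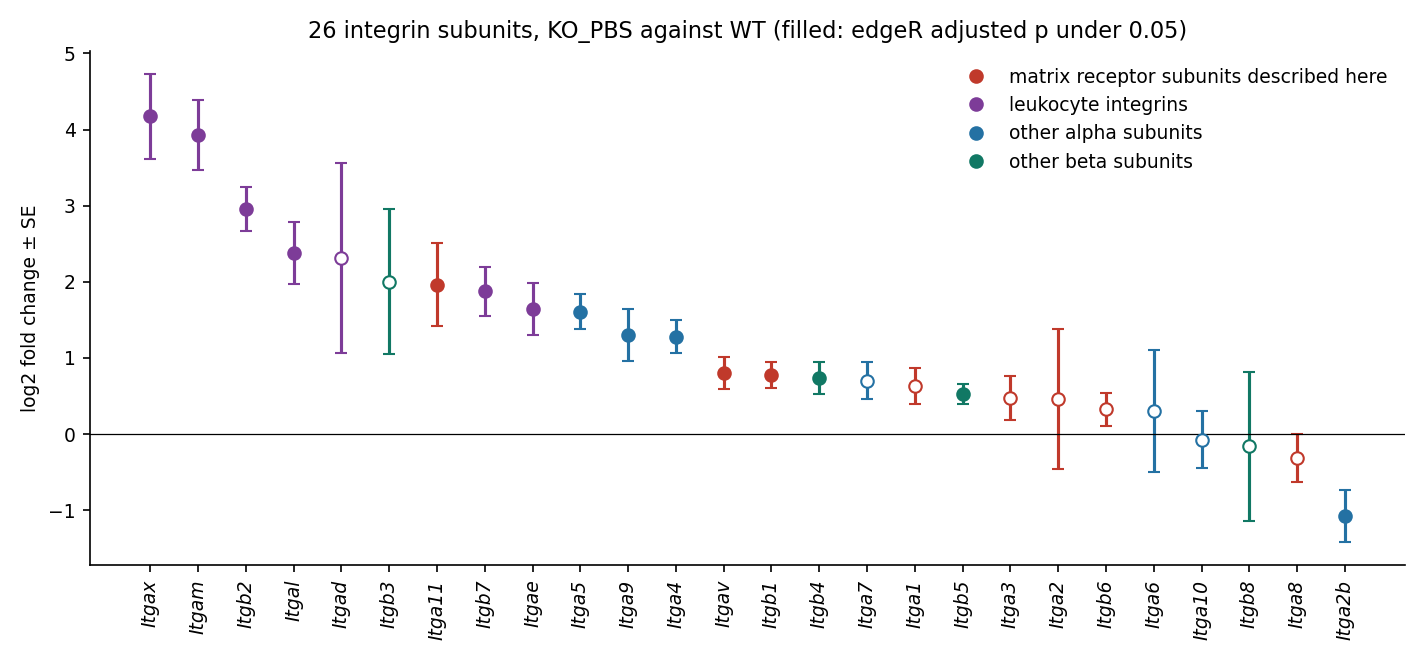
Log2 fold change (± SE) of 26 integrin subunits in KO_PBS against WT, coloured by list and filled where the edgeR adjusted p was under 0.05. The leukocyte subunits Itgax, Itgam and Itgb2 lie at the top, and among the matrix receptor subunits Itga11, Itgav and Itgb1 are filled.

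The receptors' ligands were a further list. For this list and those that follow, counts in KO_PBS against WT stand beside 14.6% of all genes called higher and 9.85% called lower. Of 20 ligand genes tested 14 rose in KO_PBS and none fell, with a median log2 fold change of 1.69, and the 3 with the lowest p were Col5a2, Col3a1 and Col1a1, chains of the fibrillar collagens that Itga11 and both discoidin receptors bind. Col1a1 went from 23.5 to 405 CPM (4.11 ± 0.42), Col3a1 from 64.4 to 887 CPM (3.78 ± 0.38) and Col5a2 from 11.6 to 87.3 CPM (2.91 ± 0.24), each with edgeR adjusted p = 0.00135. In KO_antimiR21 the means were 151, 361 and 37.0 CPM. There 7 of the 20 ligand genes were called higher against WT, beside 6.72% of all genes.

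Of 23 intracellular adaptors and kinases of integrin adhesions 7 rose, 1 fell and 15 did not pass, with a median of 0.31. Parvg, the parvin of blood cells (2.42 ± 0.31), Actn1, an actin cross-linker (1.73 ± 0.23), and Rsu1, a partner of the integrin-linked kinase complex (0.68 ± 0.11), had the lowest p (edgeR adjusted p = 0.0017, 0.00189 and 0.00378). Tln2, a talin, was the 1 that fell and was singled out for that, from 233 ± 27.5 to 105 ± 41.0 CPM (-1.15 ± 0.32, edgeR adjusted p = 0.0301). Its call was lost without WT 1, WT 2, WT 3, KO_PBS 1 or KO_PBS 2 (edgeR adjusted p = 0.0821, 0.0547, 0.0581, 0.0664 and 0.0725). Of 14 other matrix receptors 9 rose, with Lair1, an inhibitory collagen receptor of white blood cells (3.44 ± 0.35), Cd44, the hyaluronan receptor (4.30 ± 0.60), and Sdc1, a syndecan (1.81 ± 0.25), at the lowest p (edgeR adjusted p = 0.00135, 0.00204 and 0.00208).

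Markers of cell types that carry these receptors also moved between the groups, and their part in the receptor values was not tested. The summed level of 6 fibroblast markers was 121 to 135 CPM in WT, 555 to 700 in KO_PBS and 207 to 356 in KO_antimiR21. In KO_PBS 4 of the 6 rose. Col1a1, given above as a ligand gene, is 1 of these 6 and made up most of the KO_PBS sum. Alone it stood at 17.5 to 31.8 CPM in WT, 384 to 438 in KO_PBS and 68.2 to 195 in KO_antimiR21. For 7 mesangial, pericyte and smooth muscle markers the sums in the same order of groups were 203 to 220, 504 to 746 and 236 to 393 CPM, with 4 that rose. For 8 podocyte markers they were 413 to 586, 614 to 707 and 600 to 653 CPM, with 3 that rose. Of 6 proximal tubule markers 4 fell in KO_PBS, with sums of 7152 to 10097 CPM in WT, 1286 to 4022 in KO_PBS and 3094 to 6083 in KO_antimiR21. The sums of 4 thick limb and distal tubule markers were 4567 to 7948 CPM in WT, 2118 to 4379 in KO_PBS and 3697 to 6328 in KO_antimiR21, with 2 that fell in KO_PBS. Those of 4 collecting duct markers were 723 to 1252, 496 to 768 and 553 to 736 CPM, also with 2 that fell. Endothelial sums were 359 to 387, 219 to 335 and 235 to 307 CPM, with 1 of 6 markers that fell. None of these markers was at 0 in all libraries.

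Likeness between receptors over the 9 libraries is given as Pearson correlations of log2 CPM, which share the group differences and the scaling. Itgav and Ddr1 were at 0.95, Itgav and Itgb1 at 0.90 and Itga1 and Itga11 at 0.88. Itga2 and Itga3 were at 0.82, while the neighbours Itga1 and Itga2 were at 0.12. Itgb6 reached at most 0.74, with Itga1, and Ddr2 at most 0.59, with Itga2. Itga8 had a coefficient below 0 with each of the other 9, lowest with Itgav at -0.69. Of 12467 other genes whose average log2 CPM reached 2 or more, the closest to Ddr1 was Cldn1, which encodes a tight junction claudin, at 0.99. Closest to Itga8 was Ltbp1, which encodes a latent TGF-beta binding protein, at 0.92. The closest gene was Ubap2 for Itgb1 (0.99), Klrg2 for Itga3 (0.98), Card14 for Itga11 (0.98), Gpr124, an endothelial adhesion receptor, for Itga1 (0.95) and 4930506M07Rik for Itgav (0.99). It was Smn1 for Itga2 (0.96), Sntb2, a syntrophin, for Ddr2 (0.95) and BC024571 for Itgb6 (0.94). Each is the highest of 12467 coefficients over 9 libraries.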

How the data were processed

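Whole kidney RNA was profiled in 9 libraries, 3 per group. The deposited tables hold expected counts per gene symbol, made with RSEM and Bowtie on mm9, per the submitters' processing notes. The sources used here give no versions, annotation or strand. Antisense and overlapping genes could not be separated, and RSEM can split reads between near-identical copies. The authors also deposited a voom log2 matrix, with limma named in the same notes, which equals log2 CPM plus 1 constant per library to within 5.2e-14.

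Expected counts were rounded and genes kept by filterByExpr (17315 of 22637). All 9 libraries entered 1 edgeR quasi-likelihood fit with 3 group means and TMM, two-sided, adjusted by Benjamini-Hochberg over all genes per comparison and called under 0.05. Replicates differed beyond counting noise (chi-square per gene 29.5 to 132). The members and lists were chosen with earlier results of these data known. The text names all 10 members, Col4a3, the 3 genes of each pathway list with the lowest p in KO_PBS against WT, the gene most correlated with a member, and genes singled out in the text. Fermt1, Fermt2, Fermt3, Kank2, Adgre1, Lyz2 and Pf4 were not matched by symbol, and Col2a1 and the 3 platelet markers were not tested. Motifs were chosen after the values were seen. UTRs and transcript lengths came from GENCODE vM21 on GRCm38, where 81.9% of tested genes had a UTR, some through RefSeq synonyms. Alternatives were other scalings, DESeq2, limma, no filter, 2 groups only, a replicate block, sex, library code and leaving out each library. Fits ran in edgeR 4.0.16 under R 4.3.3, with DESeq2 1.42.0 and limma 3.58.1 as alternatives. Tables and plots used Python 3.11.15, matplotlib 3.10.9 and pandas 2.3.3.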

Additional observations from a re-analysis of the deposited data

How the results depend on the processing

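Of 590 values for the 10 receptors under 21 alternatives, 533 kept their sign and side of the threshold, 23 lost a call, 8 gained one and 26 changed sign, none of them a called value. In KO_PBS against WT, 4227 genes and 4 receptors were called. With sex as a covariate or male libraries only, both counts were 0, where WT 2 in effect stands for WT, and with library code as a covariate 2 receptors, Itgb1 and Ddr1, were called. Leaving out 1 library gave 2423 to 4332 genes and 1 to 6 receptors, fewest genes without KO_PBS 1 and 1 receptor without WT 3 or KO_PBS 2 and 6 without WT 1. In KO_antimiR21 against KO_PBS, DESeq2 called 21 genes and every other setting 0. In KO_antimiR21 against WT, 1238 genes and 0 receptors were called. That count of genes was 2002 by DESeq2, 707 with only the 2 groups compared, and 0 with sex as a covariate, male libraries only or library code as a covariate (2115, 2192 and 2031 genes at an unadjusted p under 0.05). Leaving out 1 library gave 667 (without WT 3) to 1602 genes and 0 to 1 receptors, and 1 receptor, Ddr1, was called with library size only or by DESeq2. In KO_antimiR21 against WT, the fit with library code separates code from group only through KO_PBS, the 1 group with both codes. The cause of the differences between settings was not tested.

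Signs changed for uncalled values. In KO_PBS against WT, with sex as a covariate and with male libraries only, Itga2 was at -0.82 and -0.80, Itga3 at -0.12 and -0.0935 and Npnt at 0.28 and 0.30. Leaving out 1 library gave -0.0344 to 2.31 for Itga2 and -0.57 to 0.0788 for Npnt. In KO_antimiR21 against KO_PBS, Itga8 was at 0.25 with library code as a covariate and with code L5 only, and ran from -0.32 to 0.31 without 1 library. There Itgav ran from -0.37 to 0.0303, Itga4 from -0.27 to 0.08 and Cd44 from -0.56 to 0.0117. In KO_antimiR21 against WT, Itgb6 was at 0.0639 with library size only, 0.27 with sex as a covariate, 0.31 with male libraries and 0.13 with library code, and ran from -0.23 to 0.23 without 1 library. Itga2 was at 0.42 by limma, and ran from -0.77 to 1.57. Itga3 was at -0.49 with sex as a covariate and -0.46 with male libraries, and ran from -0.14 to 0.55. Itga8 was at 0.0853 with library code, and Ddr2 ran from -0.98 to 0.0268.

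With the replicate number as a block, 3205, 0 and 923 genes and 4, 0 and 0 receptors were called in the 3 comparisons, and Itga2 was at 0.21 in KO_antimiR21 against WT. Same-numbered libraries had correlations of deviations from -0.37 to 0.44, so the numbers were not taken to pair the libraries. Depth limits Itga11, Itga2 and Ddr2, with at most 136 counts in any library.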
